A study of Mus musculus with 36 samples.

Results

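Macrophages from adult Scnn1b-Tg mice were compared with those of wild-type (WT) mice in 2 housings, and the difference between the 2 genotype effects, the interaction, is described here. Scnn1b-Tg (Tg) mice carry a transgene for the beta subunit of the sodium channel ENaC, driven in airway club cells by the promoter of Scgb1a1. All mice were recorded as the strain C57Bl/6N Tac and were 42 days old (PND 42). Specific pathogen free (SPF) mice, 4 WT and 4 Tg, came from 1 animal facility and germ-free (GF) mice, 3 WT and 3 Tg, from another, so that the absence of microbes, the facility and the colony cannot be told apart. The 14 arrays of PND 42, of 36 in the series, carry the comparison, and each of these 14 held lavage cells of a single mouse after depletion with a Ly-6G antibody. Of 28940 features of the array analysed, the 23099 with a gene annotation were described, and all values are log2 intensities. The interaction is the Tg minus WT difference in GF mice less the same difference in SPF mice: a positive value means that the effect was more positive in GF mice.

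Excess sodium uptake dries the airway surface, mucus is cleared poorly, and the lumen fills with mucus and inflammatory cells. Alveolar macrophages clear inhaled particles, microbes and dead cells, and they sense microbes through receptors such as the Toll-like receptors. They can also be driven by cytokines of type 2 immunity, interleukins 4 and 13, into a program called alternative activation, of which arginase 1 is the classical marker. The comparison asks whether a Tg effect on macrophages that is seen with a resident microbial flora differs in size or in kind without it.

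The defining macrophage genes were strongly expressed on all 14 arrays, with Lyz2 between 11.95 and 12.11, Cd68 between 11.45 and 11.93 and Siglecf, a surface marker of alveolar macrophages, between 8.54 and 9.87. Scnn1b itself read 3.11 to 4.18 on the 14 arrays, near the lowest signals of the array, and since the transgene acts in club cells this gene does not check the labels. The study's methods name male mice, but GF replicates 1 and 2 of both genotypes had Xist values of 9.14 to 9.62 and Eif2s3y values of 3.01 to 3.30, against Xist values of 2.98 to 3.45 on the 10 other arrays. The 4 arrays are split evenly between genotypes, so that each GF effect compares the same mix, but the housings differ in it. Tg GF replicate 3, with a low Xist value, stood apart from the 2 other Tg GF arrays: on the first principal component, which carried 46.5% of the variance of the 14 arrays and separated the genotypes, it lay at 48.7 against 19.0 to 31.7 on the 6 other Tg arrays. Several main results are given with and without it, but the counts of features that differed between genotypes are given with it only. Leaving it out removes the low Xist array of the Tg GF mice, while the WT GF mice keep theirs.

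The Tg effect was large in both housings and had the same sign for nearly all genes that carried it. The interaction passed the test for 1 gene, the chemokine Ccl8. At an adjusted p of 0.05, 1219 of 23099 features (5.28%) differed between Tg and WT in SPF mice and 1316 (5.7%) in GF mice, against 1 (0.00433%) for the interaction. With a limit of 2-fold added, which is what "called" means below for a genotype effect, 444 features (1.92%) were called in SPF mice, 346 higher and 98 lower in Tg, and 610 (2.64%) in GF mice, 501 higher and 109 lower. At an unadjusted p of 0.05 the interaction counted 731 features (3.16%), 391 above 0 and 340 below. A fit on the 14 adult arrays alone, which leaves out the wider spread of the newborn arrays, gave 1161 features (5.03%) at that limit and 0 at the adjusted p. At this limit 5% of features would pass with no difference at all. Replicates of the adult groups are single mice, while the paper states that each sample of the younger ages pooled several pups. The main p-values use a spread taken over the arrays of all ages, pools included. Only the fit on the 14 adult arrays measures the spread between single mice alone. Without the 4 high Xist GF arrays, which leaves 1 GF mouse per genotype assumed to vary like the other groups, 31 features passed the adjusted p.

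Across the 23099 annotated features the GF effect followed the SPF effect with a Pearson r of 0.817 and a Spearman rho of 0.537. Features are not independent replicates, and these values describe the 14 arrays without a test. The least squares slope was 0.969 for the GF effect on the SPF effect and 0.690 the other way round, where error in either effect draws a slope towards 0. The first of these slopes was 0.870 without Tg GF replicate 3. The effects had an SD of 0.367 in SPF and 0.435 in GF mice, with median standard errors (SE) of 0.146 and 0.169. The interaction had an SD of 0.251 across features beside a median SE of 0.223, or of 0.182 from the 14 arrays alone. Over all features this SD was larger than either SE but of the same order. Among the 700 features called in 1 or both housings the SD was 0.650, beside a median SE of 0.394, or of 0.327 from the 14 arrays. Those features were chosen on the arms of the same contrast. No gene passed the adjusted p in both housings with opposite signs, while 672 genes passed it in both with the same sign, 468 higher and 204 lower in Tg.

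A feature called in one housing almost always had the same sign in the other, while fewer also passed a p limit there. Of the 444 features called in SPF mice, 443 had the same sign in GF mice, 427 (96.2%) also an unadjusted p under 0.05 there and 379 (85.4%) an adjusted one. Their median size was 1.49 in SPF mice, where they were chosen, and 1.60 in GF mice. Of the 610 called in GF mice, 608 had the same sign in SPF mice, 538 (88.2%) passed the unadjusted and 430 (70.5%) the adjusted p, and the median size went from 1.53 to 1.19. Both lists shared 354 features, which is 79.7% of the SPF list and 58.0% of the GF list. Features chosen for a large effect in one housing are on average smaller when measured again, so these medians do not compare the housings fairly. Among the SPF list 40 features (9.01%) had an unadjusted p under 0.05 for the interaction and among the GF list 124 (20.3%), but these lists were chosen on one arm of the same contrast. Without Tg GF replicate 3 the lists were chosen anew. Then 92.7% of SPF calls and 94.5% of GF calls had the same sign and an unadjusted p under 0.05 in the other housing.

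**Figure D1:**
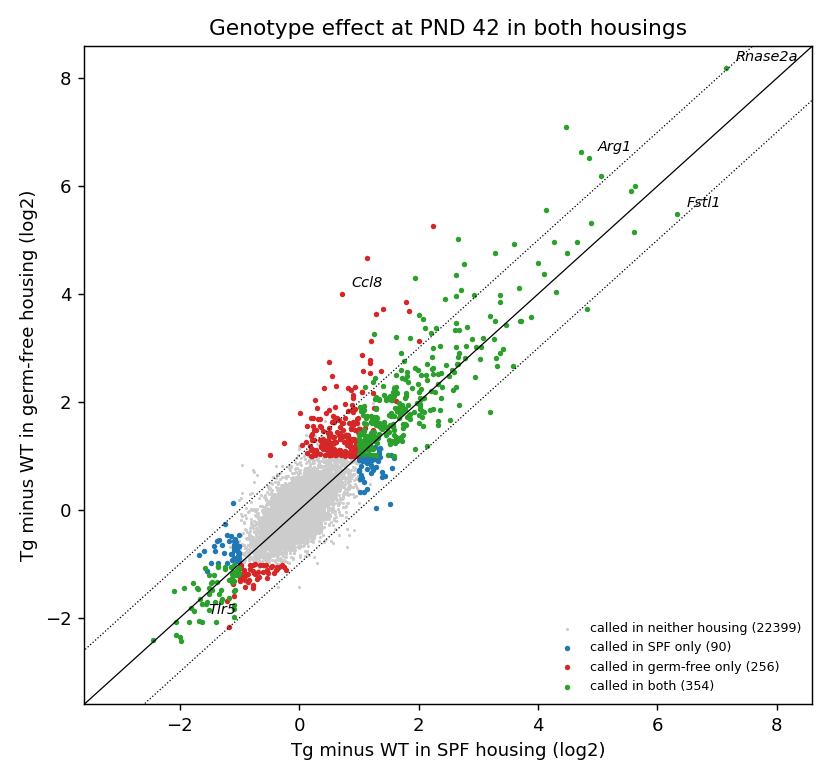
Tg minus WT effect (log2) of 23099 annotated features at PND 42, in SPF mice (horizontal axis) and GF mice (vertical axis). Each point is 1 feature, coloured by the housing in which it was called (adjusted p of 0.05 and 2-fold), the solid line marks equal effects and the dotted lines an interaction of 2-fold. The 354 features called in both lie along the line of equal effects, and 244 of them (68.9%) had the larger effect in GF mice. Ccl8, with 0.73 in SPF and 4.00 in GF mice, lies far above that line.

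The 12 leading shared rises were those of Rnase2a, Fstl1, Awat1, Ccl24, Rbp4, Arg1, Retnla, Fbp1, Mfge8, Inhba, Anpep and Mmp12. Rnase2a, of the family of eosinophil-associated ribonucleases, read 2.94 to 3.28 in WT SPF, 8.52 to 10.98 in Tg SPF, 3.06 to 3.93 in WT GF and 11.55 to 11.83 in Tg GF mice. Its Tg effect was 7.15 in SPF and 8.19 in GF mice, and the interaction of 1.04 had a 95% interval of -1.60 to 3.67. Mmp12, the macrophage elastase, read 5.51 to 5.72 in WT SPF, 9.95 to 10.48 in Tg SPF, 5.22 to 5.69 in WT GF and 10.39 to 10.62 in Tg GF mice. It rose by 4.65 in SPF and 4.97 in GF mice (adjusted p = 9.16e-10 and 8.1e-09), and the interaction was 0.31 with an interval of -0.873 to 1.496. Tg and WT mice did not overlap in either housing for these genes, while Tg mice of both housings lay side by side for Mmp12.

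Among the 10 other leading shared rises the SPF and GF effects were 6.33 and 5.48 for Fstl1, a secreted glycoprotein, 5.63 and 6.00 for Awat1, an acyltransferase of wax esters, and 5.56 and 5.91 for Rbp4, the plasma carrier of retinol. Mfge8, which bridges phagocytes to dying cells, rose by 5.61 and 5.16, and Inhba, which encodes a subunit of activin A, by 4.89 and 5.31. These 5 genes had an interaction between -0.85 and 0.42, and every interval held 0. Fbp1, an enzyme of gluconeogenesis, rose by 5.06 and 6.19 (interaction 1.13, interval -1.01 to 3.28), and larger interactions, 1.67 for Arg1, 1.91 for Retnla and 2.64 for Ccl24, are described with their lists. The interval ran from -1.38 to 0.47 for Mfge8 and from -1.23 to 1.96 for Awat1, so that a 2-fold difference (1 on this scale) in at least 1 direction lay inside it. Anpep, the aminopeptidase CD13, differed more, with 4.13 and 5.56 and an interval of the interaction of 0.40 to 2.45 (unadjusted p = 0.00793, adjusted p = 1). In WT mice Anpep read 5.77 to 7.07 under SPF and 4.95 to 5.22 under GF housing, without overlap, while the Tg mice of both housings read 10.30 to 10.87.

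The leading shared falls were of similar size in both housings. Tlr5, the receptor for bacterial flagellin, read 7.97, 7.85, 7.81 and 7.53 in WT SPF mice and 6.55, 6.20, 5.85 and 5.87 in Tg SPF mice. In GF mice it read 7.80, 7.71 and 7.93 in WT and 6.11, 5.91 and 5.23 in Tg, so that WT and Tg did not overlap in either housing and the WT mice of both housings read alike. Tlr5 fell by 1.67 in SPF and by 2.06 in GF mice, with an interaction of -0.39 (interval -1.01 to 0.23). Tnfsf13b, the B cell survival factor BAFF, fell by 2.06 and 2.08 (interaction -0.01, interval -0.54 to 0.52). Nt5e, the ectonucleotidase CD73, fell by 1.98 and 2.44, and Gal, the neuropeptide galanin, by 2.45 and 2.40. The fall of Gal in GF mice, then 1.68, did not pass the adjusted p without Tg GF replicate 3, which read 5.75 against 8.57 and 7.26 in the other Tg GF mice. The other leading falls were Kazald1, Cpne5, Tppp3 and Slc9a2, with interactions of -0.25, -0.36, -0.45 and -0.12. Tg GF replicate 3 read lowest of the Tg GF mice for Kazald1 (5.50 against 7.90 and 7.21) and Cpne5 (4.48 against 7.30 and 5.64), and without it the interactions were 0.44 and 0.30, with the sign turned. The interaction of Cpne5 was -1.71 (adjusted p = 0.013) without the 4 high Xist GF arrays.

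For 5 genes called in both housings the interval of the interaction was narrowest around 0. Gpnmb, a glycoprotein of lysosomes in lipid-laden macrophages, rose by 1.18 and 1.16, and the interval of the interaction ran from -0.43 to 0.39. Trem2, a lipid-sensing receptor of macrophages, rose by 1.44 and 1.56 (interval -0.30 to 0.54). S100a1 (interval -0.49 to 0.37) and Uhrf1bp1l (interval -0.47 to 0.53) also rose, and Apcdd1, an inhibitor of Wnt signalling, fell (interval -0.36 to 0.52). For these genes an interaction of 1.5-fold lay outside the interval in both directions.

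Ccl8, a chemokine gene of the cluster on chromosome 11, was the only feature past the adjusted p. It read 2.80, 3.11, 2.93 and 3.18 in WT SPF mice, 4.69, 3.20, 3.84 and 3.19 in Tg SPF mice, 2.77, 2.93 and 2.99 in WT GF mice and 7.25, 5.50 and 7.94 in Tg GF mice. All 3 Tg GF mice lay above the highest Tg SPF mouse, and 2 of the 4 Tg SPF mice read close to the highest WT mouse. The Tg effect was 0.73 ± 0.30 (SE) in SPF mice (adjusted p = 0.221) and 4.00 ± 0.35 in GF mice (adjusted p = 6.22e-09). The interaction was 3.27 ± 0.46, with a 95% interval of 2.34 to 4.21 and an adjusted p of 0.00183 from limma's moderated test. In the 14 adult arrays alone the same difference had an unadjusted p of 0.00017 and an adjusted p of 0.441. It was 2.75 (adjusted p = 0.00803) without Tg GF replicate 3, 2.80 (adjusted p = 0.0258) without both low Xist GF arrays and 4.22 (adjusted p = 3.02e-05) without the 4 high Xist GF arrays, which leaves 1 GF mouse per genotype. Ccl8 belongs to genes the study chose on these samples, so that its place on the list of fixed genes is not independent of the result.

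The neighbours of Ccl8 that attract monocytes had positive interactions that did not pass the adjusted p. Ccl12 read 3.36 to 3.81 in WT SPF, 3.55 to 4.81 in Tg SPF, 3.82 to 4.30 in WT GF and 5.70, 6.85 and 7.67 in Tg GF mice. It rose in GF mice by 2.74 (adjusted p = 0.00131), with a difference of 0.50 in SPF mice (adjusted p = 0.787) and an interaction of 2.24 (interval 0.79 to 3.69, unadjusted p = 0.0037). Ccl7, named here after its values were seen, rose in GF mice by 3.72, with 1.41 in SPF mice (adjusted p = 0.056) and an interaction of 2.31 (interval 0.97 to 3.65). Ccl2 rose in both housings, by 2.44 and 3.92. The Tg GF mice lay above every Tg SPF mouse for Ccl12, Ccl7 and Ccl2. Ccl11, in the same cluster and named for its position, read 3.01 to 3.54 on all 14 arrays. Of the 15 CC chemokines of the list, 8 rose in SPF mice and 10 in GF mice, 0 fell, and 11 had an interaction above 0. Of all 18820 genes 677 (3.6%) rose and 400 (2.13%) fell in SPF mice, 757 (4.02%) rose and 420 (2.23%) fell in GF mice, and 9050 (48.1%) had an interaction above 0. Among the 15 CC chemokines, 4 were above 0 at an unadjusted p of 0.05 (Ccl8, Ccl12, Ccl7 and Ccl24) and 1 was below. Over all genes 1.76% were above and 1.56% below at that limit. The chemokine below 0 was Ccl3, which rose by 3.59 in SPF and by 2.67 in GF mice (interaction -0.91, interval -1.80 to -0.03).

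**Figure D2:**
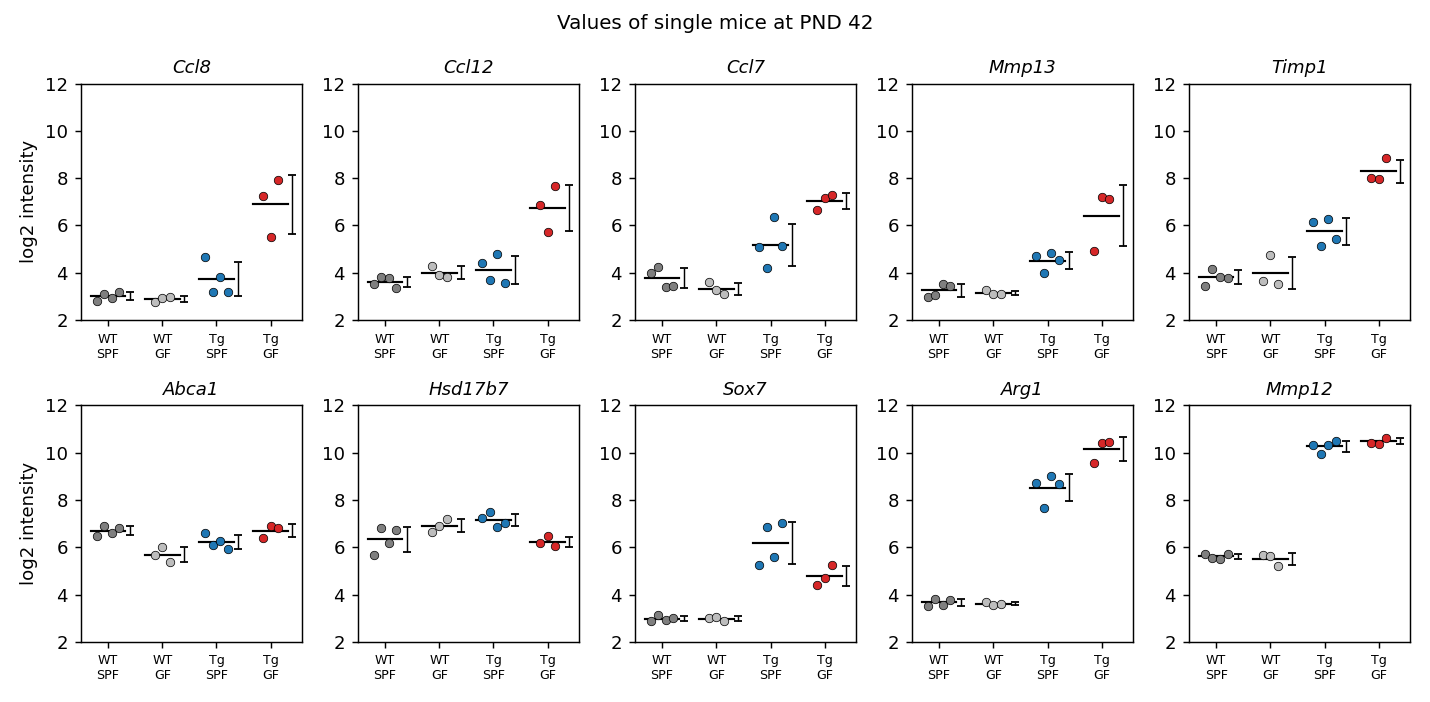
Log2 intensity of 10 genes in each of 14 mice at PND 42, by genotype and housing. Points are mice in replicate order, horizontal lines group means and bars the SD (4 mice per SPF group, 3 per GF group). For Ccl8 the Tg GF mice read 5.50 to 7.94 and the Tg SPF mice 3.19 to 4.69, while for Mmp12 the Tg mice of both housings read 9.95 to 10.62.

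Below Ccl8, the smallest p-values above 0 belonged to Abca1, Ciita, Mmp13, Grm6 and Igf2bp3, none of which passed the adjusted p. Abca1, the exporter of cholesterol to lipoproteins, read 6.47 to 6.91 in WT SPF and 5.93 to 6.61 in Tg SPF mice, and 5.39 to 6.01 in WT GF and 6.41 to 6.91 in Tg GF mice. Its interaction of 1.496 ± 0.27 (SE; interval 0.95 to 2.05) had an adjusted p of 0.0729. The Tg effect was -0.48 in SPF mice (adjusted p = 0.14) and the gene rose by 1.01 in GF mice (adjusted p = 0.00165), and WT GF mice read below all WT SPF mice. Mmp13, a collagenase, read 2.98 to 3.53 in WT SPF, 4.00 to 4.83 in Tg SPF, 3.09 to 3.25 in WT GF and 4.93, 7.20 and 7.11 in Tg GF mice. It rose in both housings, by 1.26 and 3.26, and the interaction was 2.00 (interval 1.06 to 2.94, adjusted p = 0.96). For Ciita, the master regulator of MHC class II transcription, the interaction was 0.73 (interval 0.39 to 1.07), for Grm6, a glutamate receptor, 0.80, and for Igf2bp3, an RNA-binding protein that rose in both housings, 0.72. Igf2bp3 read 5.25 to 5.51 in WT SPF and 4.40 to 4.49 in WT GF mice, without overlap. The Tg groups overlapped, with 6.13 to 6.46 in SPF and 5.77 to 6.37 in GF mice.

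The smallest p-values below 0 belonged to Zfand5, Enpp5, Sox7, Csn1s2b, Hsd17b7 and Olfr96, again with none past the adjusted p. Sox7, a transcription factor gene, read 2.87 to 3.12 in WT mice of both housings, 5.23, 6.86, 5.58 and 7.03 in Tg SPF mice and 4.40, 4.70 and 5.25 in Tg GF mice. It rose by 3.19 in SPF and by 1.81 in GF mice, with an interaction of -1.38 (interval -2.14 to -0.63), and the Tg groups overlapped only at the highest Tg GF and the lowest Tg SPF mouse. Enpp5, an ectophosphodiesterase, rose by 1.28 in SPF mice, against a difference of 0.03 in GF mice (adjusted p = 0.993), and the interaction was -1.26 (interval -1.92 to -0.59). It read 3.78 to 4.29 in WT SPF and 4.59 to 5.94 in Tg SPF mice. In GF mice it read 3.41 to 3.79 in WT and 3.30 to 3.96 in Tg, near the floor of the array. Zfand5, a zinc finger protein gene, rose by 0.79 in SPF mice and had a difference of -0.12 in GF mice (interaction -0.91, interval -1.35 to -0.47). Hsd17b7, an enzyme of cholesterol synthesis, read 5.67 to 6.79 in WT SPF, 6.85 to 7.48 in Tg SPF, 6.66 to 7.21 in WT GF and 6.05 to 6.45 in Tg GF mice. Its genotype differences, 0.81 in SPF (adjusted p = 0.0881) and -0.69 in GF mice (adjusted p = 0.28), had opposite signs, the groups did not overlap within either housing, and the interaction was -1.50 (interval -2.33 to -0.66). Csn1s2b, a casein gene, read 3.41 to 4.14 and Olfr96, an olfactory receptor gene, 3.30 to 3.72 on all 14 arrays, near the floor of the array, with interactions of -0.45 and -0.37.

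Genes called in one housing with an unadjusted p over 0.05 in the other numbered 62 for GF and 13 for SPF mice. These counts stand beside 610 features called in GF and 444 in SPF mice, all with Tg GF replicate 3 included. For none of the 12 genes named next did the difference itself pass the adjusted p. The 6 of largest effect in GF mice alone were Ocstamp, Ccl12, Ifitm3, Cd34, Fyb and Peg10. Ocstamp, a membrane protein of osteoclast fusion, read 3.01 to 3.80 in WT SPF mice, 5.64, 3.78, 5.17 and 4.00 in Tg SPF mice, 2.76 to 3.40 in WT GF mice and 7.91, 7.20 and 7.91 in Tg GF mice. Its interaction of 3.53 was larger than that of Ccl8 and had a wider interval, 1.48 to 5.58 (unadjusted p = 0.00142, or 1.41e-05 in the 14 adult arrays). The interaction was 1.93 for Cd34 (interval 0.69 to 3.17), 1.85 for Peg10 (0.79 to 2.92), 1.52 for Ifitm3, an antiviral membrane protein (-0.62 to 3.67), and 1.35 for Fyb, an adaptor protein (-0.16 to 2.86). Without Tg GF replicate 3 the rises of Ifitm3 and Fyb in GF mice, then 1.98 and 1.59, no longer passed the adjusted p. The 6 of largest effect in SPF mice alone were Hpgd, Clec12a, Enpp5, Mylip, Zbtb32 and Pla2g2d. Mylip, which directs the LDL receptor to degradation, read 6.81 to 7.62 in WT SPF, 5.364 to 6.601 in Tg SPF and 5.94 to 6.67 in WT GF mice, while Tg GF mice read 5.85 to 6.32. It fell by 1.23 in SPF mice, against -0.27 in GF mice, with an interaction of 0.97 (interval 0.10 to 1.83). Hpgd, which degrades prostaglandins, fell by 1.42 in SPF mice against -0.67 in GF mice, and the interval of the interaction, -0.47 to 1.98, held 0.

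No member of alternative activation passed the adjusted p for the interaction. Of 33 measured members 14 rose and 1 fell in SPF mice, and 19 rose and 1 fell in GF mice. Over all genes 3.6% rose and 2.13% fell in SPF mice, and 4.02% rose and 2.23% fell in GF mice. The median effect was 0.51 in SPF and 0.78 in GF mice, and the median interaction 0.34, beside -0.01 over 18820 genes. The interaction was above 0 for 28 of 33 members, and 5 were above 0 at an unadjusted p of 0.05 with none below, beside 331 above (1.76%) and 293 below (1.56%) among all genes. Arg1 read 3.51 to 3.82 in all WT mice, 7.68 to 8.99 in Tg SPF mice and 9.55, 10.39 and 10.46 in Tg GF mice, so that the 2 Tg groups did not overlap. It rose by 4.85 and 6.52, and the interaction of 1.67 had an interval of -0.32 to 3.66. That interval rests on the spread of the arrays of all ages, not of the adult mice alone. Within the adult groups the SD of Arg1 was 0.16 in WT SPF, 0.58 in Tg SPF, 0.07 in WT GF and 0.51 in Tg GF mice. Retnla, a secreted protein of alternative activation, rose by 4.72 and 6.64 (interaction 1.91, interval -0.36 to 4.18) and Ccl24, an attractant of eosinophils, by 4.46 and 7.10 (interaction 2.64, interval 0.18 to 5.10, unadjusted p = 0.0364). The median interaction of the list was 0.28 without Tg GF replicate 3.

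The list of matrix metalloproteinases and their inhibitors had 6 members that rose in SPF and 7 that rose in GF mice, of 16 measured, and 5 with an interaction above 0 at an unadjusted p of 0.05. Over all genes these shares were 3.6%, 4.02% and 1.76%. The 5 were Timp1, Mmp13, Adam8, Mmp14 and Timp2. Timp1, the secreted inhibitor of metalloproteinases, read 3.44 to 4.75 in all WT mice, 5.12 to 6.29 in Tg SPF mice and 7.98, 8.02 and 8.84 in Tg GF mice. It rose by 1.94 and 4.31, with an interaction of 2.36 (interval 1.01 to 3.72, unadjusted p = 0.00125). Adam8, a membrane-bound protease of leukocytes, rose by 2.00 and 3.61 (interaction 1.61, interval 0.25 to 2.98). Mmp12, with the largest effect of the list, had the interaction of 0.31 given above, and the median over the list was 0.15.

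The list of cholesterol synthesis stood on the other side of 0. Of its 20 measured members 2 rose in SPF mice, and 1 rose and 1 fell in GF mice. Over all genes 3.6% rose in SPF mice, and 4.02% rose and 2.23% fell in GF mice. The median effect was 0.26 in SPF and -0.37 in GF mice and the median interaction -0.56. The interaction was above 0 for 1 of 20 members, against 48.1% of all genes, and below 0 for 19. Against 1.56% of all genes, 8 members were below 0 at an unadjusted p under 0.05: Hsd17b7, Insig1, Sqle, Msmo1, Hmgcs1, Fdft1, Sc5d and Srebf2, named after their values were seen. Srebf2, the transcription factor of this pathway, read 7.95 to 8.21 in WT SPF, 8.18 to 8.34 in Tg SPF, 8.40 to 8.49 in WT GF and 7.90 to 8.09 in Tg GF mice, so that WT and Tg did not overlap in GF mice. It fell by 0.44 in GF mice (adjusted p = 0.0443) with a difference of 0.16 in SPF mice (adjusted p = 0.656), and the interaction was -0.60 (interval -0.95 to -0.25). Insig1, which holds the pathway back in sterol-rich cells, had an interaction of -0.77 (interval -1.22 to -0.31), Hmgcs1, an early enzyme, of -0.70 and Sqle, squalene epoxidase, of -0.73. The exception above 0 was Ebp (0.15). The mean of the list was 6.97 to 7.20 in WT SPF, 7.21 to 7.46 in Tg SPF, 7.32 to 7.42 in WT GF and 6.96 to 7.25 in Tg GF mice, so that the order of the genotypes differed between housings and neither housing had overlapping groups. The median interaction was -0.47 without Tg GF replicate 3, and between -0.62 and -0.47 with any 1 of the 14 arrays left out.

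Interferon-stimulated genes and MHC class II genes had positive medians, which were lower but still above 0 without Tg GF replicate 3. Of 29 interferon-stimulated genes 1 rose in SPF and 5 in GF mice, 26 had an interaction above 0 and the median was 0.31, which was 0.17 without that array. Over all genes 3.6% rose in SPF and 4.02% in GF mice, and 48.1% had an interaction above 0. Rtp4 read 4.51 to 5.13 in all SPF and WT GF mice and 5.92, 5.93 and 7.25 in Tg GF mice (interaction 1.34, interval 0.11 to 2.56). Oasl2, an antiviral protein gene, read 4.51, 4.71 and 6.34 in Tg GF mice and 4.00 to 4.73 in Tg SPF mice (interaction 1.14, interval -0.05 to 2.33). The rises of both genes in GF mice were lost at the adjusted p without that array. Of 10 MHC class II genes, 9 had an interaction above 0, with a median of 0.50 (0.35 without that array), and H2-Aa read 10.47, 9.63 and 10.58 in Tg GF and 9.25 to 9.69 in Tg SPF mice.

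Of 17 cytokine genes of type 2 immunity and their receptors 1 rose in SPF and 5 in GF mice, against 3.6% and 4.02% of all genes. An interaction above 0 was found for 11, 5 of them at an unadjusted p of 0.05, and none passed the adjusted p. Over all genes 48.1% were above 0, and 1.76% were so at that limit. The median interaction was 0.12, or 0.07 without Tg GF replicate 3. Il13 rose by 2.68 in SPF and 3.34 in GF mice, and Il4 rose by 1.66 in GF mice with 0.66 in SPF mice (adjusted p = 0.207), in which Tg GF replicate 3 read 5.78 and the 2 other Tg GF mice 3.54 and 3.90. Il31ra, a receptor subunit for interleukin 31, read 4.77 to 5.11 in Tg GF and 3.77 to 4.16 in Tg SPF mice (interaction 0.88, interval 0.29 to 1.47). Of the 12 eosinophil genes measured, 3 rose in SPF and 7 in GF mice, against 3.6% and 4.02% of all genes, and the median interaction was 0.73, or 0.31 without Tg GF replicate 3. Ccr3, the eotaxin receptor, read 6.53, 4.01 and 7.54 in Tg GF mice and 3.66 to 5.25 in Tg SPF mice, and Prg2, the eosinophil granule major basic protein, read 6.81, 4.14 and 8.80 against 3.83 to 5.92. Epx, eosinophil peroxidase, read 2.99 to 3.44 on all 14 arrays. The mean of the eosinophil list was 4.46 to 4.58 in all WT mice, 5.33 to 6.22 in Tg SPF and 5.87 to 7.42 in Tg GF mice. In these bulk samples a larger share of such cells and more RNA per cell cannot be told apart. The depletion with Ly-6G was meant to remove granulocytes, eosinophils included, and the part of any remaining cells in the interaction was not tested. Neutrophil genes had a median interaction of 0.09 over 25 measured members, or 0.03 without Tg GF replicate 3, and 15 of 25 were above 0, with a range from -0.67 to 3.02. The highest was S100a9 at 8.59, 7.25 and 9.47 in Tg GF against 4.54 to 6.52 in Tg SPF mice (interaction 3.02, interval 0.51 to 5.53), and monocyte genes had a median of 0.37 over 17, or 0.23 without that array. The mean of the neutrophil list was 4.86 to 5.34 in Tg GF, 4.61 to 4.87 in Tg SPF and 4.37 to 4.47 in WT mice.

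For 4 lists of macrophage functions the median interaction lay between -0.10 and 0.04. The receptors that sense microbes had 26 measured members, of which 4 rose and 5 fell in SPF and 2 rose and 4 fell in GF mice, beside 3.6% that rose and 2.13% that fell in SPF and 4.02% and 2.23% in GF mice over all genes. Their median interaction was -0.06, 0 passed an unadjusted p of 0.05 and 18 had an interval within 2-fold. Trem1, an amplifier of inflammatory signals, fell by 1.40 and 2.07, and Cd14, the co-receptor for lipopolysaccharide, fell by 0.65 and 0.76. The lysosomal genes, of which 8 of 21 rose in each housing, had a median of 0.04 and 20 of 21 intervals within 2-fold. Alveolar macrophage identity genes had a median of -0.04 with 22 of 28 intervals within 2-fold, and targets of the antioxidant factor Nrf2 a median of -0.10 with 17 of 18. The lists not described had medians from -0.11 for mitosis to 0.27 for T cells and innate lymphocytes (0.17 without Tg GF replicate 3), and some had few intervals within 2-fold, 1 of 7 for CXC chemokines and 3 of 12 for complement.

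**Figure D3:**
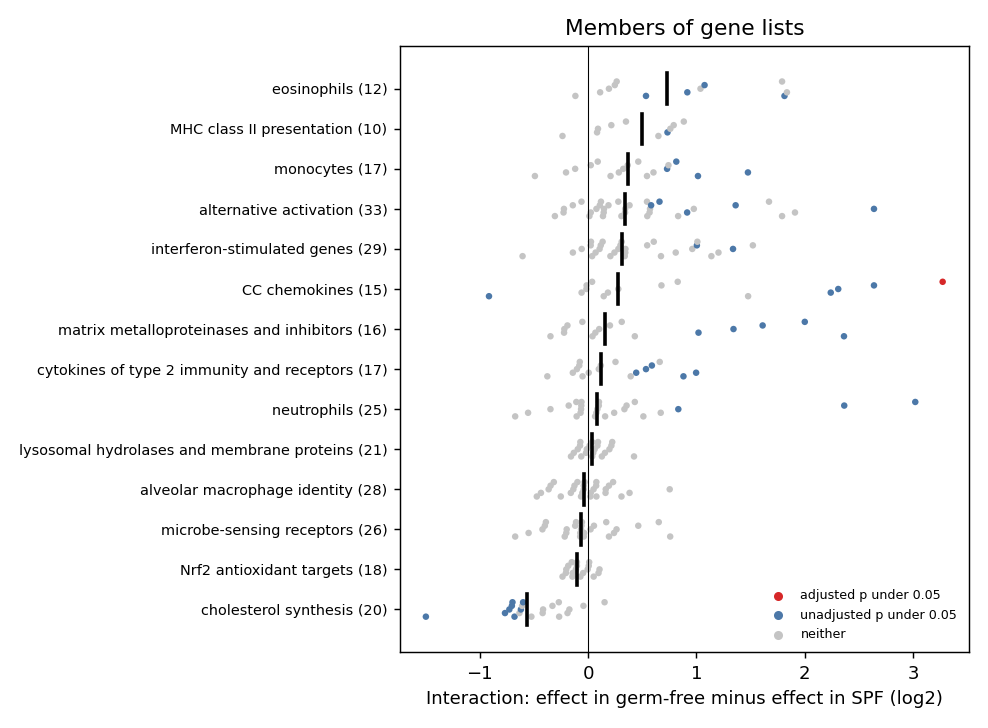
Interaction (log2, horizontal axis) of the measured members of 14 gene lists, with the number of members in brackets. Each point is 1 gene, coloured by its p-value, and the black bar is the median of the list. Medians run from -0.56 for cholesterol synthesis to 0.73 for eosinophil genes, and Ccl8 is the single gene past the adjusted p.

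Features were also chosen on younger mice, whose arrays are not among the 14. All of these mice were SPF, so that this choice shares the housing, facility and colony of the SPF adults. At PND 10, 173 features (0.749%) were called between Tg and WT mice, 154 higher and 19 lower in Tg, and 162 of them kept that direction at PND 42 in each housing. Turned to that direction, their median effect was 1.26 in SPF and 1.38 in GF mice, and the ratio of the mean effects, GF over SPF, was 1.10. The median interaction was 0.11, with quartiles of -0.10 and 0.43, and 107 features (61.8%) had the larger effect in GF mice. In single mice the mean of these features, each centred on its mean over 14 arrays, was 0.53, 0.84 and 1.12 in Tg GF and 0.54, 0.64, 0.80 and 0.89 in Tg SPF mice. The Tg groups overlapped, and WT mice lay between -0.85 and -0.68. Without Tg GF replicate 3 the ratio was 0.996 and the share larger in GF mice 50.8%. The 382 features called at PND 3 (1.65%) gave a median effect of 0.67 in SPF and 0.86 in GF mice, a ratio of 1.25 and 264 (69.1%) with the larger effect in GF mice, with Tg GF mice at 0.39, 0.62 and 0.99 and Tg SPF mice at 0.32 to 0.55. Without Tg GF replicate 3 this ratio was 1.07 and the share 56.0%.

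**Figure D4:**
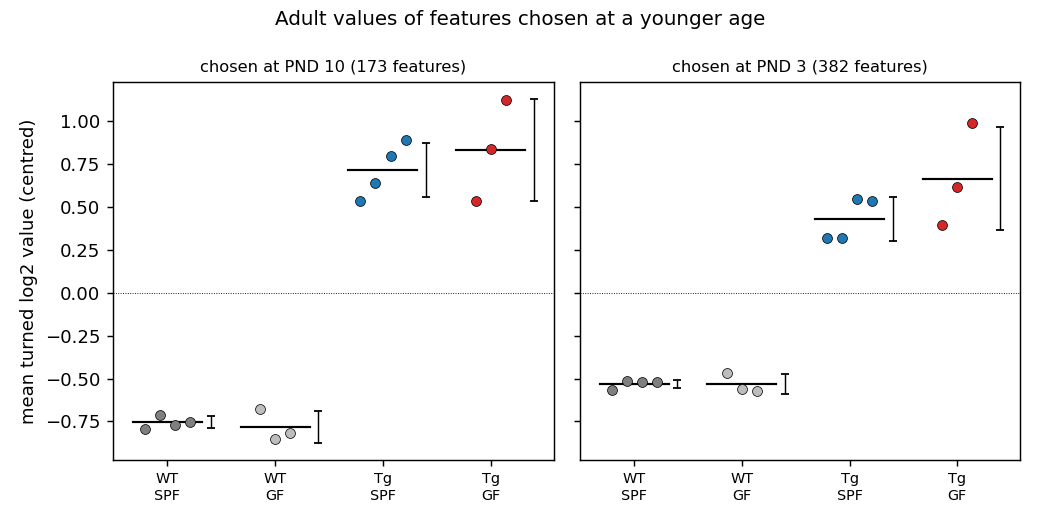
Mean of features chosen at PND 10 (left) and PND 3 (right) in each adult mouse, as log2 values centred on the mean of 14 arrays and turned to the direction of the Tg effect at the choosing age. Points are mice in replicate order, lines group means and bars the SD. Tg mice of both housings overlap at PND 10, with 0.54 to 0.89 in SPF and 0.53 to 1.12 in GF mice.

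The number of mice set how small an interaction could be seen. The half-width of the 95% interval had a median of 0.456 over the annotated features, which is 1.37-fold, with a range of 0.250 to 0.907 from the 5th to the 95th percentile. For 20163 features (87.3%) the interval lay within 2-fold in either direction, and for 10837 (46.9%) within 1.5-fold. A feature of median SE would be found with 80% power at an unadjusted p of 0.05 if its interaction were 0.65 (1.57-fold). For a lone call at the adjusted p its estimate had to reach 1.33 (2.51-fold). To make that call with 80% power the interaction had to be 1.55 (2.94-fold). From the 14 adult arrays alone the median half-width was 0.391 and 91.6% of the intervals lay within 2-fold. The limit was widest for the genes on which the Tg effect rests. Of the 700 features called in 1 or both housings, 216 (30.9%) had an interval within 2-fold and 484 had one that reached 2-fold or more. A lone call among them needed a median estimate of 2.35 (5.09-fold), and 80% power for it a median interaction of 2.75 (6.71-fold). Among the 354 called in both, 143 (40.4%) had an interval within 2-fold and 10 within 1.5-fold. An interval wholly beyond 2-fold was found for 4 features. From the 14 adult arrays alone, 272 of the 700 features (38.9%) and 171 of the 354 (48.3%) had an interval within 2-fold.

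The limit also varied with the level of a feature. The median half-width was 0.629 for features with a mean between 4 and 5, 0.609 between 5 and 6, 0.512 between 6 and 8 and 0.358 from 8 upwards. It was 0.393 for the 11328 features with a mean under 4, where signals lie close to the floor of the array, so that a narrow interval there need not mean that a difference in RNA was excluded.

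**Figure D5:**
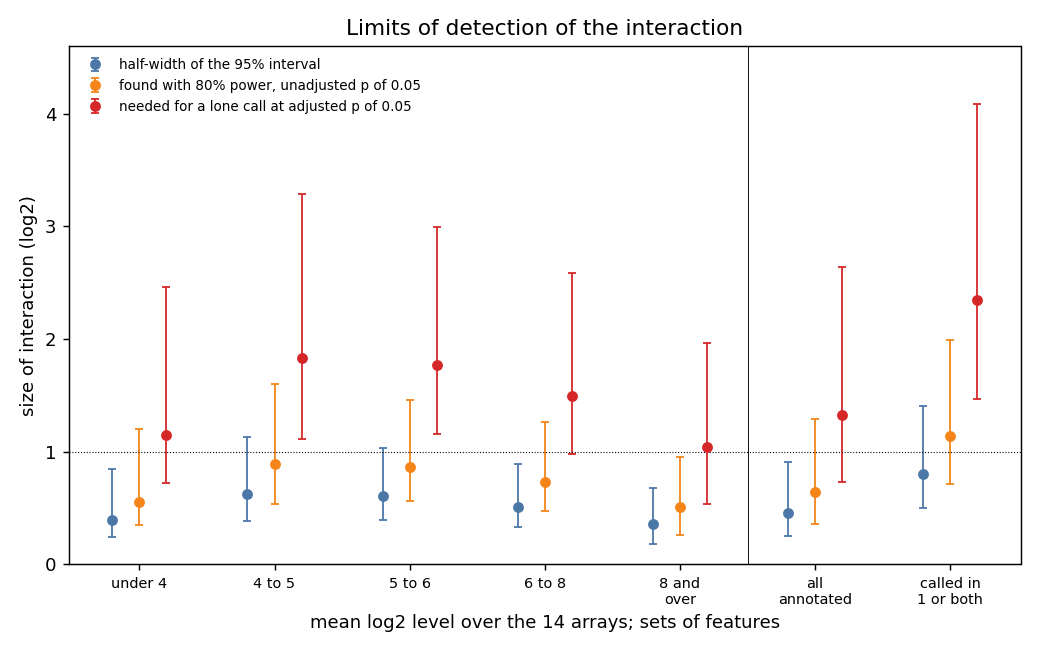
Size of the interaction (log2, vertical axis) at 3 limits, for features in bins of mean log2 level and for all annotated features and those called in 1 or both housings. Points are medians and bars the 5th to 95th percentile over features, and the dotted line marks 2-fold. The median half-width of the 95% interval is 0.456 over all annotated features and 0.806 over the 700 called in 1 or both housings.

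Genes that the study singled out for differences between housings were of more than 1 kind. Nnt, a mitochondrial transhydrogenase, read 6.789 to 6.997 in all SPF mice and 5.23 to 5.80 in all GF mice, and Wdfy1 read 6.15 to 6.82 in SPF and 4.33 to 5.23 in GF mice. The housings did not overlap in WT or in Tg mice for either gene. Whether the SPF and GF colonies shared the same genetic background was not tested. The interaction was -0.45 for Nnt (interval -0.81 to -0.09) and -0.35 for Wdfy1 (interval -0.95 to 0.25). Enpp4 rose by 0.91 in SPF mice, with a difference of 0.64 in GF mice, and its interaction of -0.27 had an interval of -1.06 to 0.53. These genes were chosen by the study on these samples and are no independent evidence of a direction.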

How the data were processed

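RNA (12 ng per array) from lavage cells depleted of Ly-6G+ cells was measured on the Mouse Gene 1.0 ST array of Affymetrix. The log2 values were deposited by the authors after RMA normalization; Partek 6.5 is named in the submitters' processing notes. Of 35556 features, 6616 presumed controls were left out. For the 28940 others a linear model in limma (version 3.58.1, R 4.3.3) had a mean for each of 10 groups of age, genotype and housing over 36 arrays, with empirical Bayes moderation and Benjamini-Hochberg adjustment over all features. Of these, 21218 carried 1 symbol and 1881 several, and a gene was represented by 1 feature. The number of arrays limits the precision. The statistics were tested on simulated data. Named genes were the leading shared rises and falls, the smallest interaction p-values in each direction, the largest effects called in 1 housing, the narrowest intervals and 50 fixed genes, of which 49 were measured. Members, lists and tests were chosen with earlier results of these data known. Alternatives included the 14 adult arrays alone, array weights, renormalization, filters, a replicate block and leaving out each array; both that leave out arrays by Xist value were added after the data were seen, as was leaving out Tg GF replicate 3 for features chosen at PND 3.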

Additional observations from a re-analysis of the deposited data

Results flagged for a closer look

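The Tg effect on Ccl8 differed between the housings by 3.27 (log2, GF minus SPF), tested as the interaction described above.

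In the SPF groups of 4 mice, 13 of 198 sets of values had 1 mouse whose gap to the nearest other, divided by the range of the group, exceeded the limit for 4 samples. Chance gives about 1 in 20. Among WT mice the ratio was 0.898 for Ccl2 (replicate 2, 3.12), 0.916 for Igf2bp3 (replicate 4, 5.51), 0.928 for Fyb (replicate 2, 3.76), 0.899 for Peg10 (replicate 4, 2.89) and 0.839 for Il4 (replicate 2, 2.56). Among Tg mice it was 0.983 for Grm6 (replicate 1, 3.49), 0.840 for Fbp1 (replicate 2, 6.74), 0.840 for Gal (replicate 4, 6.24), 0.849 for Hpgd (replicate 4, 3.27) and 0.853 for Clec12a (replicate 4, 5.49). The same ratio was 0.902 for Igf1 (Tg replicate 4, 9.98), 0.834 for Hmgcs1 (Tg replicate 3, 8.27) and 0.842 for Trem1 (Tg replicate 3, 6.75).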

How the results depend on the processing

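No value past the adjusted p changed sign under an alternative. Values that did not pass it did: 167 of 13251 for 52 of the 149 named genes, among them the interactions of Kazald1 and Cpne5, and 52 of 922 list medians, in 15 lists. The number of features called in the interaction, 1 as reported, was 0 in the 14 adult arrays alone, after quantile normalization again of those 14 and with a mean of at least 5, which removes Ccl8. It was 2 with array weights, with 1 feature per symbol, with a term for the Xist value, at an adjusted p of 0.1 and without the 2 low Xist GF arrays, 31 without the 4 high Xist GF arrays, and 1 to 3 with each array left out. The replicate numbers did not pair the samples (correlations of same-numbered mice from -0.106 to 0.0932): with the replicate block 0 features were called, Ccl8 had an adjusted p of 0.0544 and the median half-width was 0.461. The cause of these changes was not tested.

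The r of the 2 effects was 0.880 with a mean of at least 5, 0.733 without the high and 0.780 without the low Xist GF arrays, and 0.784 to 0.824 with each array left out. The slope was 1.17 without the high Xist arrays (0.870 to 1.06 with each array left out). The share of SPF calls seen in GF mice was 87.0% and 89.8% without the high and low Xist arrays (92.6% to 97.9%), that of GF calls seen in SPF mice 83.9% to 94.5% with each array left out. The ratio for features chosen at PND 10 was 1.33 without the high Xist arrays (0.996 to 1.204).

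The median half-width was 0.391 in the 14 arrays, 0.404 with array weights, 0.388 after quantile normalization again, 0.498 with a mean of at least 5, 0.679 and 0.521 without the high and low Xist arrays and 0.473 to 0.492 with each array left out. The share within 2-fold was 91.6%, 91.1% and 91.5% under the first 3 of these, 58.0% and 80.8% without the high and low Xist arrays and 82.8% to 85.6% with each array left out. For the named genes, 12755 values kept their direction and side of the threshold, 234 fell below it and 95 passed it. With 3 GF mice per genotype, most genes of large effect cannot be resolved below 2-fold.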
